A study of Mus musculus with 3 samples.

Results

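The genes described are 10 of the 32227 genes counted in nuclei of mouse dorsal root ganglia (DRG). They were chosen by name as the signals that keep macrophages alive and draw them into tissue: the ligands Csf1 and Il34 with their receptor Csf1r, the membrane-bound chemokine Cx3cl1 with its receptor Cx3cr1, the chemokine Ccl2 with its receptor Ccr2, and the cytokine Tgfb1 with its receptor subunits Tgfbr1 and Tgfbr2. No measured value entered the choice of the list, although earlier results from these nuclei were known when it was made. Lumbar DRG of C57BL/6 mice were dissociated to nuclei and sequenced by droplet single nucleus RNA sequencing (snRNA-seq) with the PIP-seq method. A single library came from adult mice of 3 months and 2 libraries from aged mice of 21 months, all labelled male and all uninjured as far as the labels say. The methods of the study list the mice of the aged group as female in one passage and give both sexes in another, so that sex and age may not be separate in this comparison. The series text gives 12 months for the aged mice, and the sample labels were followed. The sources used here do not say whether a library pools several mice. P-values rest on the spread between the 2 aged libraries, estimated with all genes together. The study counts the 3 libraries as biological replicates, so that this spread may take in differences between mice or pools of mice. It holds no spread between adult libraries. The adult group is 1 library, and whatever else set that library apart cannot be told apart from age.

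Macrophages need signals through the CSF1 receptor to survive, and both CSF1 and IL-34 bind it; injured sensory neurons are known to make CSF1. Fractalkine, the product of Cx3cl1, is shed from neurons and endothelium and is read by CX3CR1 on resident macrophages, while CCL2 draws CCR2-bearing monocytes out of the blood. TGF-beta acts through a complex of the type II receptor, which binds the ligand, and the type I receptor, which signals to SMAD proteins, and helps macrophages to take on a tissue-resident state.

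Barcodes with more than 1000 genes were kept, which left 11518 nuclei in the adult library, 5130 in aged library 1 and 2611 in aged library 2. Their median depths were 3269, 4318 and 4900 UMIs, and at most 1 kept barcode was shared by any pair of libraries. Clusters were named from marker genes that hold none of the 10 genes, as satellite glial cell-like (SGC), non-myelinating and myelinating Schwann-like (NMSC, MSC), neuron-like, fibroblast-like, endothelial-like, mural-like and immune-like classes; the neurons were split into peptidergic (PEP), non-peptidergic (NP), Sst itch (SST), Th low-threshold (TH), Trpm8 cold (COLD) and large-fiber neurofilament (NF) subtypes. Levels are in CPM, the UMIs of a gene divided by all UMIs of its class in that library and put on the usual CPM scale. Tests used 13 classes, the 6 neuron subtypes among them, with 20 or more nuclei in each library. NMSC was 1 cluster of 898 nuclei that carried the satellite glial and non-myelinating Schwann lists about equally against all other clusters and was named from both lists compared within glia.

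The myeloid class held 80, 198 and 142 nuclei, which was 0.719%, 4.14% and 5.78% of the named nuclei in the adult and the aged libraries. The complement genes C1qa, C1qb and C1qc marked each of its clusters. A list of 7 resident macrophage genes (Mrc1, Cd163, Folr2, Lyve1, F13a1, Timd4 and Cbr2) summed to 1708, 825 and 744 CPM in it, with none of the 7 at 0. The list did not set the class apart from its nearest ones, since it summed to 2143, 3566 and 2766 CPM in monocyte-like nuclei, where Cd163, Lyve1, Timd4 and Cbr2 were at 0, and to 408, 247 and 1797 CPM in granulocyte-like nuclei. Free RNA, estimated from the neuronal genes seen in this class, made up 28.5% of its adult UMIs and 10.5% and 7.92% of those from the aged libraries. Monocyte-like (20, 18 and 25 nuclei), dendritic-like (21, 8 and 12), granulocyte-like (17, 22 and 38) and T cell-like nuclei (39, 35 and 14) were too few for tests, and their levels are given as values.

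**Figure D1:**
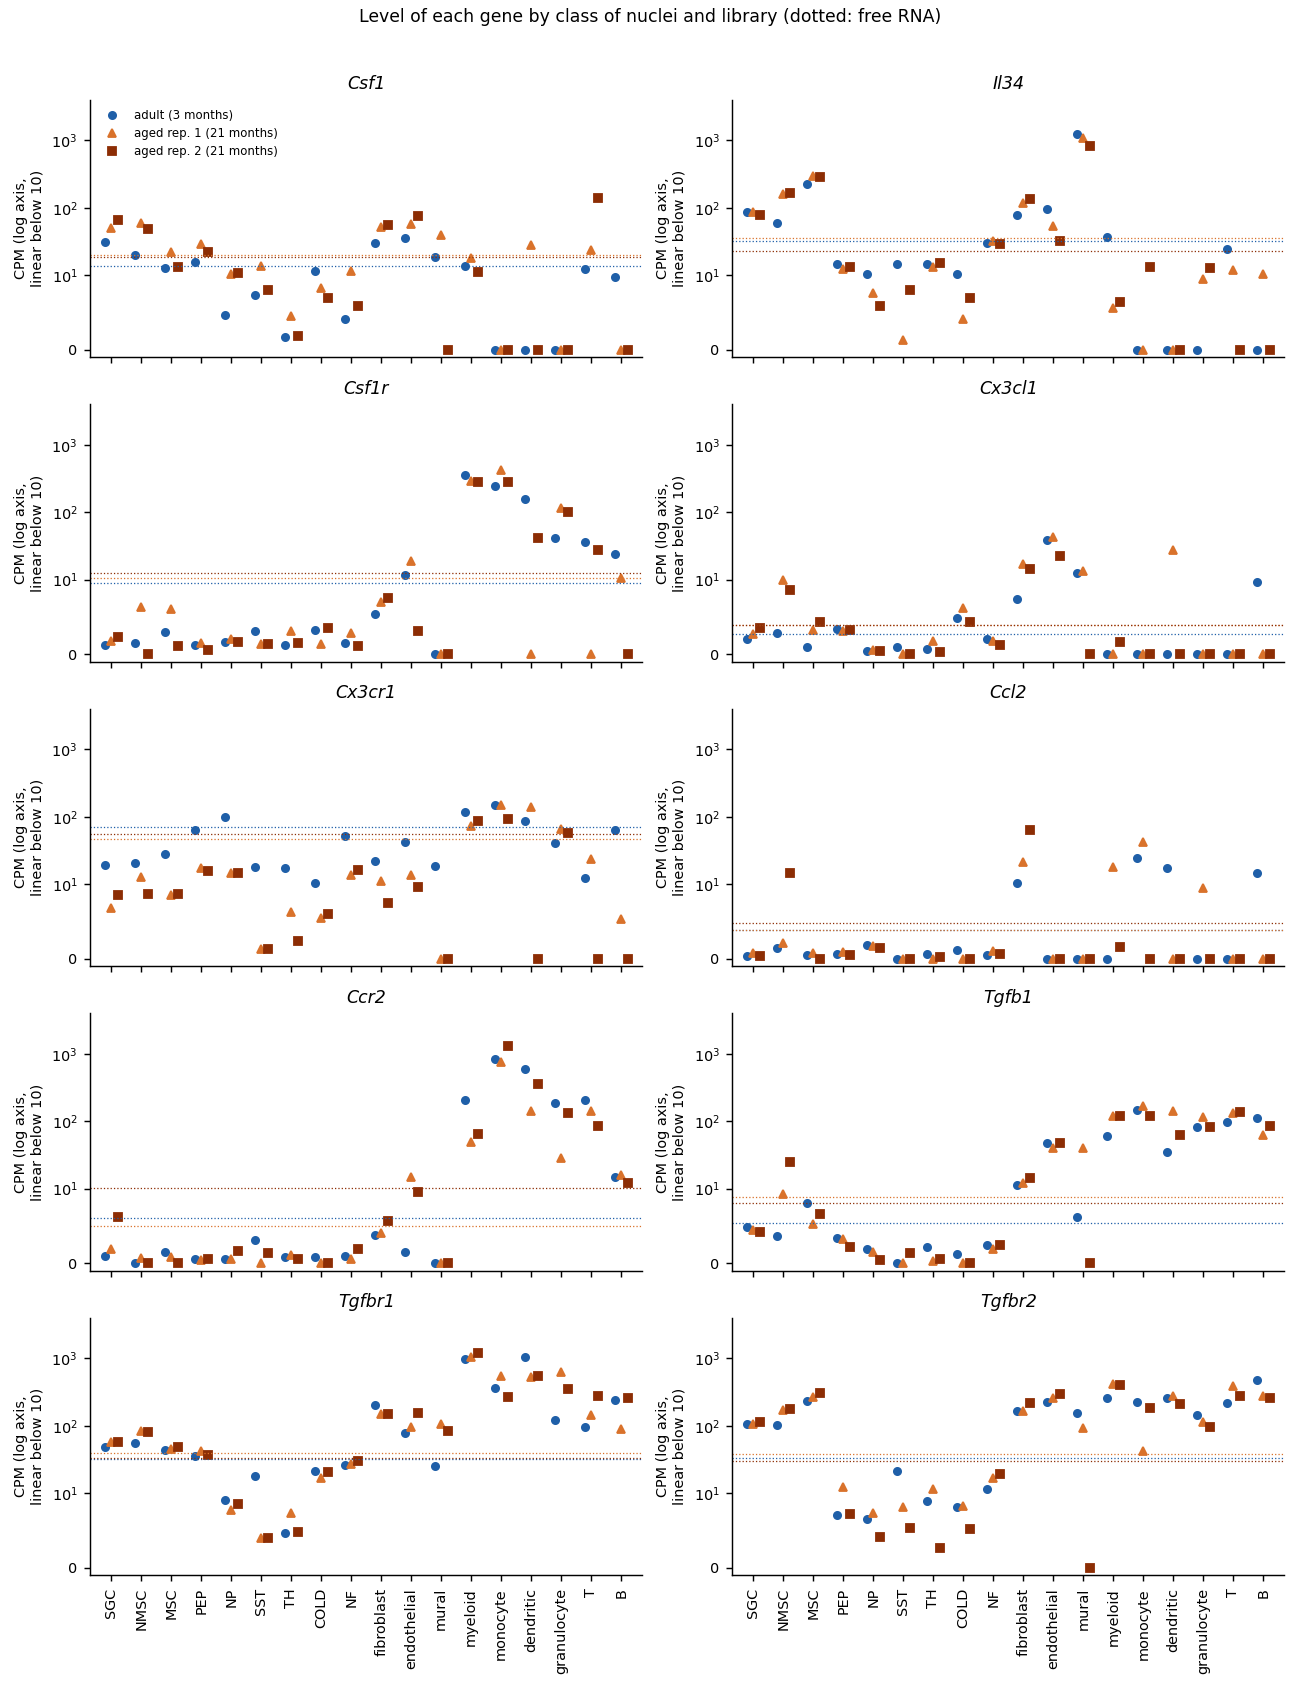
Level of each gene (CPM, log axis, linear below 10) in each class of nuclei, with 1 point per library: adult (circle), aged library 1 (triangle) and aged library 2 (square). Dotted lines mark the level of the gene in free RNA of each library. Csf1r and Ccr2 stand above the free RNA lines mainly in immune classes, Il34 is highest in mural nuclei, and the adult Cx3cr1 points lie above the aged ones in neurons and glia.

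Csf1 was measured in glia, stroma, endothelium and peptidergic neurons, and was not detected in monocyte-like or granulocyte-like nuclei. Its level in endothelial nuclei was 35.6 CPM in adult nuclei, 56.4 CPM in aged library 1 and 76.4 CPM in aged library 2. In SGCs, the glia that wrap sensory neuron cell bodies, it was 31.0, 50.2 and 65.2 CPM, and in fibroblasts 29.9, 51.9 and 54.6 CPM. These classes and NMSC (19.6, 60.3 and 49.0 CPM) overlapped over the 3 libraries, so that no order among them can be given beyond their spread. Among the neuron subtypes PEP was highest, at 15.4, 28.7 and 21.9 CPM, and TH lowest, at 1.77, 4.56 and 1.79 CPM. PEP did not overlap with NP, at 4.59, 10.3 and 10.8 CPM. Neurons together still held the largest share of all Csf1 UMIs, 46.3%, 53.7% and 54.0%. Free RNA carried Csf1 at 13.5, 19.9 and 18.3 CPM, above the level of every neuron subtype but PEP in the same library. The highest single cluster was a fibroblast cluster led by Ranbp3l and Slc22a8, of which the aged libraries held 22 and 12 nuclei, at 88.2, 60.7 and 122 CPM. T cell-like nuclei reached 139 CPM in aged library 2, on 5 UMIs. A count of 0 in monocytes allows up to 73.9, 62.9 and 39.7 CPM in the 3 libraries.

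Csf1 rose with age in SGCs, NMSC and NP neurons. In edgeR's quasi-likelihood test the log2 fold change of aged over adult was 0.68 ± 0.20 (SE) in SGCs (adjusted p = 0.0051), 1.32 ± 0.38 in NMSC (adjusted p = 0.0088) and 1.07 ± 0.32 in NP neurons (adjusted p = 0.015). Over all neurons, where the level was 7.51, 15.8 and 12.0 CPM, the change was 0.76 ± 0.26 (adjusted p = 0.036). In each of these classes both aged libraries lay above the adult one. The share of all tested genes called in either direction was 18.5% in SGCs, 9.3% in NMSC, 10.1% in NP and 8.83% in all neurons. Fibroblasts (0.75 ± 0.30, adjusted p = 0.14), PEP (0.56 ± 0.28, adjusted p = 0.36), NF (0.89 ± 0.33, adjusted p = 0.080) and endothelium (0.79 ± 0.44, adjusted p = 0.56) did not pass the test. The estimate was above 0 in 11 of the 12 classes in which Csf1 could be tested, which share the same 3 libraries, and below 0 in COLD (-0.76 ± 0.61, adjusted p = 0.76). The calls were not firm: DESeq2 gave adjusted p = 0.26 in SGCs, 0.59 in NMSC, 0.42 in NP and 0.25 over all neurons. Of the alternatives with a test, 4 of 9 kept the call in SGCs and in NMSC, 4 of 8 in NP and 3 of 9 over all neurons. The setting without clusters of low Malat1, counted among them, leaves the sums of SGCs and NMSC as they are. Nuclei thinned to 1000 UMIs gave 0.82 in SGCs (adjusted p = 0.11) and 1.89 in NMSC (adjusted p = 0.075), and a class set directly from marker genes gave 0.52 in NMSC (adjusted p = 0.31). SGC nuclei were deeper in the aged libraries (median 3114, 7214 and 7904 UMIs), and at the equal depth of the thinned nuclei the SGC estimate was no smaller but was not called. Aged SGC nuclei also carried more of the 8-gene neuronal list (999, 1802 and 1650 CPM), and its part in the SGC value was not tested.

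Il34, the other CSF1R ligand, was highest in mural nuclei, the pericytes and smooth muscle of vessel walls. It reached 1229, 1081 and 826 CPM there, and 86.4%, 83.3% and 66.7% of the mural nuclei held a UMI of it. Mural nuclei were few (59, 18 and 3), so that no test was run and the last value rests on 10 UMIs. All 3 values lay above those of every other class. Among the larger classes MSC was highest, at 228, 294 and 284 CPM, with no overlap with NMSC at 60.2, 162 and 166 CPM. Il34 UMIs were found in 42.9%, 54.4% and 59.4% of MSC nuclei, and in 20.3%, 21.9% and 25.6% after thinning to 1000 UMIs. Fibroblasts followed at 76.8, 118 and 134 CPM, SGCs at 86.8, 87.6 and 77.5 CPM and endothelium at 96.4, 54.1 and 31.8 CPM. Within fibroblasts the level differed between clusters: a cluster led by Slc47a1 and Slc26a7 had 14.5, 19.6 and 16.1 CPM, while one led by Mmp2 and Col15a1 had 157, 159 and 229 CPM. NF neurons, the large myelinated fibers, had 29.5, 31.6 and 29.3 CPM, above the other neuron subtypes in all 3 libraries, but near the 31.9, 35.7 and 22.7 CPM of free RNA.

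Among the neuron subtypes the level of Csf1 was highest in PEP and that of Il34 in NF, with no test run between subtypes. The level of Csf1 in PEP was 8.73, 12.2 and 10.3 times what the estimated share of free RNA in these nuclei would give, and that of Il34 in NF 8.04, 6.09 and 16.0 times. Levels of the 2 genes are not compared with each other, since counts per gene depend on transcript length and priming.

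Il34 rose with age in NMSC, by a log2 fold change of 1.27 ± 0.26 (adjusted p = 5.0e-05). It was called in no other class. The estimate was 0.26 ± 0.15 in MSC (adjusted p = 0.32), 0.62 ± 0.25 in fibroblasts (adjusted p = 0.13) and -0.26 ± 0.16 in SGCs (adjusted p = 0.28). The endothelial level rested on 65, 48 and 10 UMIs, and the estimate of -1.11 ± 0.38 did not pass (adjusted p = 0.12). NMSC nuclei were deeper in the aged libraries (median 2618, 4066 and 4000 UMIs), and thinned to 1000 UMIs they gave 0.96 for Il34 (adjusted p = 0.081). The lists for myeloid cells (25.4, 110 and 47.6 CPM), cycling cells (26.1, 88.6 and 96.6 CPM) and granulocytes (13.1, 20.6 and 69.2 CPM) were also higher there in both aged libraries, and the part of these cells in the Csf1 and Il34 values of NMSC was not tested. The NMSC value of Il34 turned to -0.51 (adjusted p = 0.19) when nuclei were assigned one by one from the marker genes in place of clusters. The antisense genes Gm15894 and Gm15895 overlap Il34 and held 0 to 2 UMIs each in NMSC and in MSC of a library. No source says that strand was used in counting, and without it reads of a gene and of its antisense partner cannot be told apart.

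**Figure D2:**
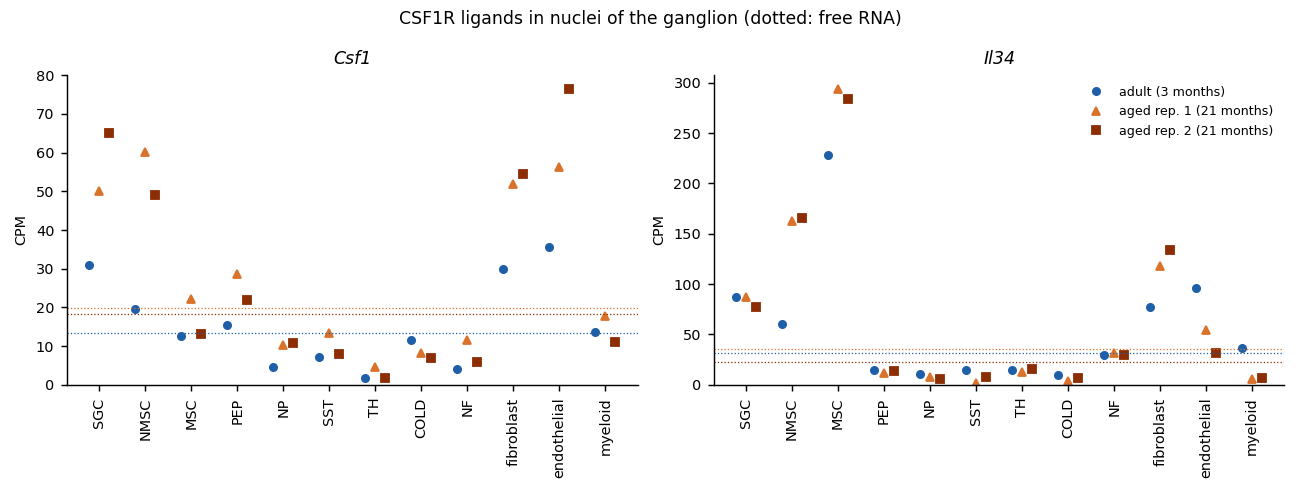
Levels (CPM, linear axes) of the CSF1R ligands Csf1 and Il34 in the 12 classes with enough nuclei in each library, B cells left out, with 1 point per library and the free RNA level as dotted lines. Csf1 lies higher in both aged libraries than in the adult library in SGC, NMSC, NP, fibroblasts and endothelium, and Il34 is highest in MSC.

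Csf1r, the receptor that macrophages need to survive, had its highest levels in myeloid-lineage nuclei. It was at 356, 291 and 281 CPM in the myeloid class, 246, 420 and 278 CPM in monocytes and 40.8, 114 and 101 CPM in granulocytes. The neuronal, glial, fibroblast, endothelial and mural classes lay at 19.2 CPM or below in each library, against 9.57, 10.5 and 12.5 CPM in free RNA. UMIs of Csf1r were seen in 42.5%, 65.7% and 61.3% of myeloid nuclei but in 1.92%, 2.58% and 2.21% of neurons, which should lack it and are deeper (median 7343, 5646 and 7465 UMIs, against 2180, 3671 and 3740 in myeloid nuclei). After thinning to 1000 UMIs the myeloid shares were 27.5%, 30.3% and 27.5%.

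Relative to all UMIs of the myeloid class no age difference in Csf1r was called (-0.26 ± 0.20, adjusted p = 0.42); the 80, 198 and 142 nuclei held 78, 263 and 177 UMIs of it. Over the 11 alternatives, subtraction of free RNA among them, the myeloid estimate ran from -0.61 to 0.05. None of the 9 alternatives with a test called it. Over all kept nuclei together it rose from 3.15 CPM in the adult library to 8.68 and 7.47 CPM, a log2 fold change of 1.23 ± 0.27 (adjusted p = 0.0002). In such a sum, more nuclei of a class and more RNA per nucleus cannot be told apart. The share of Csf1r UMIs that lay in the myeloid class was 29.7%, 58.7% and 65.6%, and the share in neurons, at their low level, was 38.4%, 19.9% and 13.7%. Over all nuclei 12.5% of tested genes were called, and among the 10 genes Csf1r was the only one higher and Cx3cr1 the only one lower. The rise of Csf1r over all nuclei passed the threshold in each of the 8 alternatives that gave a test, although another integration and the marker gate leave these sums as they are. Hmgxb3, which overlaps Csf1r on the opposite strand, gave 0.04 in the same sums (adjusted p = 0.93).

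The myeloid class fell into 3 clusters, and Csf1r was not even among them. A cluster led by Ms4a14, Ms4a7, Stab1 and Gpr34 (34, 80 and 50 nuclei) had 589, 449 and 448 CPM. A cluster led by Cd163 and Mgl2, with the scavenger receptor Msr1 among its leading genes (44, 34 and 16 nuclei), had 180, 179 and 141 CPM, below the first in every library. The last cluster, led by Atp6v0d2, Mmp12 and Gpnmb, genes of lipid-laden and phagocytic macrophages, held 2 adult nuclei and 84 and 76 aged ones, with 246 and 239 CPM in the aged libraries. Without this last cluster the myeloid estimate for Csf1r was 0.05 (adjusted p = 0.93).

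**Figure D3:**
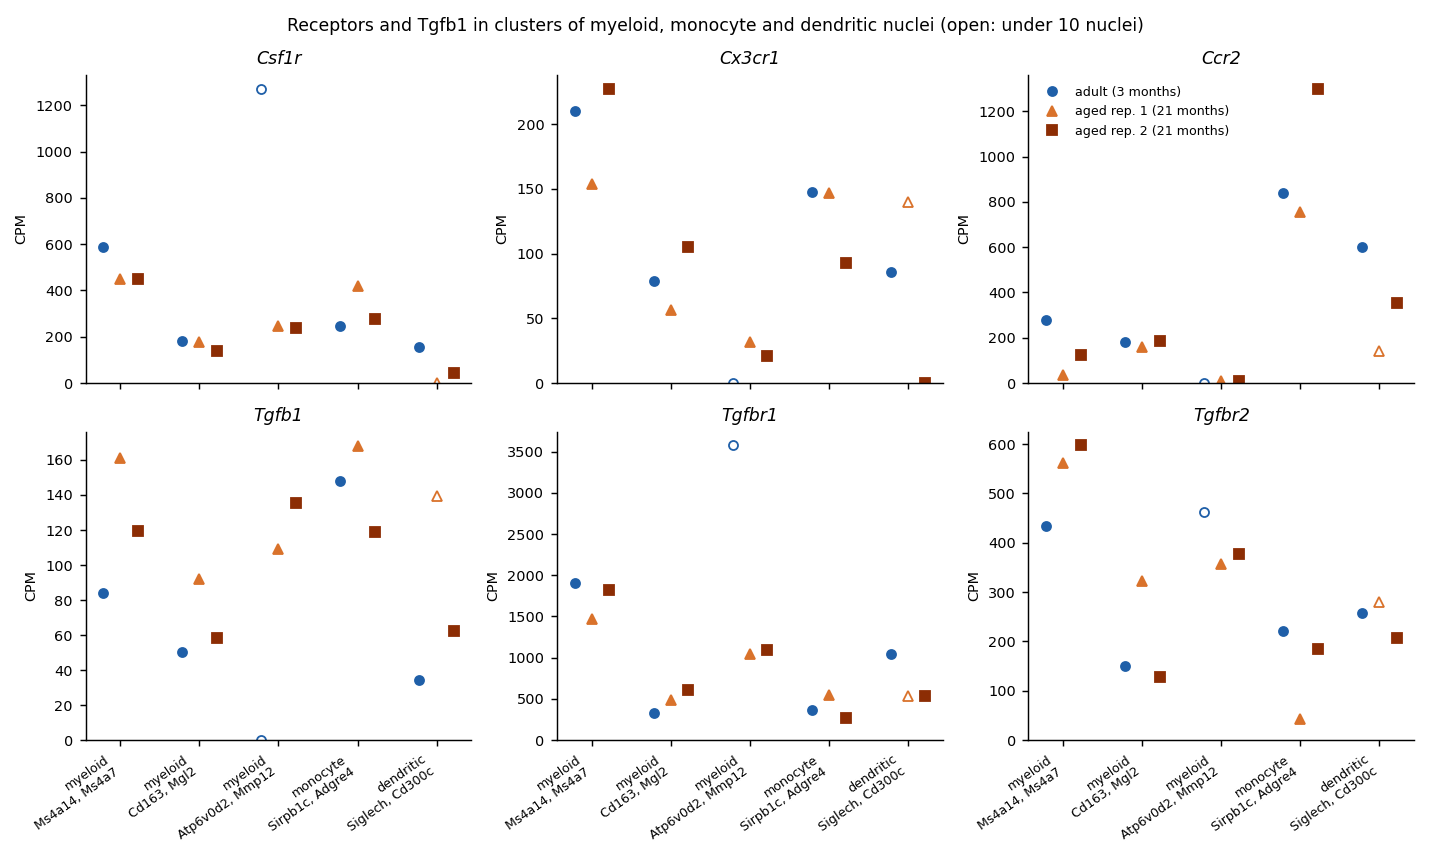
Level (CPM) of Csf1r, Cx3cr1, Ccr2, Tgfb1, Tgfbr1 and Tgfbr2 in the 3 myeloid clusters and in the monocyte-like and dendritic-like clusters, each named by 2 of its leading genes, with 1 point per library and open symbols where fewer than 10 nuclei stand behind a point. Csf1r, Cx3cr1 and Tgfbr1 are highest in the Ms4a14 and Ms4a7 cluster among points with 10 or more nuclei of the myeloid class, and Ccr2 is highest in monocytes.

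Cx3cl1, which encodes fractalkine, was highest in endothelial nuclei at 38.6, 42.8 and 22.3 CPM. These values did not overlap with fibroblasts, the next class, at 7.35, 16.9 and 14.1 CPM. NMSC (2.90, 9.93 and 8.65 CPM) and COLD neurons (4.92, 6.17 and 4.32 CPM) followed. PEP neurons had 3.43, 3.09 and 3.26 CPM and NP neurons 0.47, 0.61 and 0.46 CPM. Free RNA held 2.69, 3.94 and 3.87 CPM, and endothelium, fibroblasts, NMSC and COLD lay above it in all 3 libraries. Neurons held 60.0%, 43.5% and 54.3% of the Cx3cl1 UMIs all the same, and endothelium 11.3%, 20.4% and 7.61%. No age difference was called: the estimate was -0.17 ± 0.48 in endothelium (adjusted p = 0.96), 1.00 ± 0.54 in fibroblasts (adjusted p = 0.37), 1.49 ± 1.01 in NMSC (adjusted p = 0.47) and -0.29 ± 0.36 in all neurons (adjusted p = 0.72). Aged library 2 held 7 Cx3cl1 UMIs in endothelium.

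Cx3cr1, the fractalkine receptor of resident macrophages and monocytes, had its highest levels in monocyte-like nuclei (148, 147 and 92.7 CPM) and myeloid nuclei (119, 73.1 and 87.4 CPM). Within the myeloid class the Ms4a14 and Ms4a7 cluster had 210, 153 and 227 CPM, the Cd163 and Mgl2 cluster 79.2, 56.2 and 105 CPM, and the Gpnmb-led cluster 31.8 and 21.3 CPM in the aged libraries. UMIs of Cx3cr1 were also frequent in neurons of the adult library. NP neurons had 100 CPM in that library and 14.6 and 14.4 CPM in the aged ones, PEP neurons 63.7, 17.3 and 15.6 CPM and NF neurons 51.0, 13.7 and 16.1 CPM. The adult values lay outside the aged range in all 3 subtypes. Neurons held 89.0%, 74.8% and 77.0% of all Cx3cr1 UMIs in named nuclei. A UMI was found in 42.9%, 17.4% and 20.7% of NP nuclei and, after thinning to 1000 UMIs, in 9.52%, 1.89% and 2.04%.

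Neuronal and glial Cx3cr1 counts fell with age in 6 of the 12 classes tested, and the estimate was below 0 in all 12. The log2 fold change was -2.92 ± 0.20 in NP (adjusted p = 3.4e-46), -2.11 ± 0.26 in PEP (adjusted p = 7.0e-14), -1.99 ± 0.22 in NF (adjusted p = 2.8e-16) and -2.15 ± 0.46 in TH (adjusted p = 0.0013). Over all neurons it was -2.25 ± 0.22 (adjusted p = 2.7e-22), and over all kept nuclei, at 51.3, 14.7 and 14.6 CPM, -1.94 ± 0.20 (adjusted p = 1.6e-19). In glia the counts fell in SGCs (19.4, 6.78 and 8.48 CPM, -1.58 ± 0.29, adjusted p = 3.5e-06) and MSC (27.7, 8.51 and 8.71 CPM, -1.77 ± 0.40, adjusted p = 0.00029). Fibroblasts (-1.30 ± 0.44, adjusted p = 0.052) and endothelium (-1.80 ± 0.64, adjusted p = 0.13) did not pass. The background of calls in these classes was 4.23% of genes in PEP, 7.86% in NF, 2.4% in TH and 11.6% in MSC. Over all neurons, in NP and in PEP the call held in each of the 9 alternatives that gave a test; in SGCs it was lost with DESeq2 (adjusted p = 0.11), without the count filter (adjusted p = 0.35) and after thinning (adjusted p = 0.40). The call was also lost in TH with DESeq2 (adjusted p = 0.66) and the marker gate (adjusted p = 0.16), in MSC above 2000 genes (adjusted p = 0.0996) and with free RNA subtracted (adjusted p = 0.058), and in NF with the marker gate (adjusted p = 0.35). Subtraction of free RNA moved the estimate to -2.88 in MSC. It gave -5.82 in SGCs and -8.15 in TH, but the size of these 2 values is not read. Aged counts there were near or below the estimated free RNA, so that subtraction left almost none.

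Neuron clusters with little Malat1, a nuclear RNA, and more mitochondrial RNA took a larger part of the aged nuclei. The NP cluster of this kind, where Malat1 was 0.388% of UMIs, held 113 of 1019, 212 of 581 and 102 of 392 NP nuclei, the NF cluster led by Shox2 and Hapln4 held 248, 370 and 104, and the PEP cluster led by Htr3a and Creg2 held 324, 340 and 128. Within the NP cluster Cx3cr1 was at 36.6, 14.1 and 10.5 CPM. Without all such clusters, an alternative chosen after the data were seen, the change was -2.93 in NP, -1.94 in NF, -2.18 in PEP and -2.30 over all neurons, and each was still called.

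In myeloid nuclei the estimate was smaller and was not called (-0.52 ± 0.33, adjusted p = 0.33). It turned to 0.18 (adjusted p = 0.84) without the Gpnmb-led cluster, and the contrast that follows was not run without that cluster. The difference itself was tested: the age effect on Cx3cr1 in myeloid nuclei was higher than the mean effect of the other classes by 1.76 ± 0.39 on the log2 scale (adjusted p = 0.0086). The 13 classes come from the same 3 libraries, and the spread was estimated over all class sums, with aged library 2 as a block. The mean of the other classes takes in SGCs, whose aged levels are at the free RNA background, as given below. In that contrast 2.48% of 17895 genes were called, and 4974 genes had a standard error above 10 and could not be called. It was 1.60 with another scaling of library size (adjusted p = 0.022), 2.50 without aged library 1 and 1.55 without aged library 2. Of the 130 contrasts of this kind, over 10 genes and 13 classes, 50 had a standard error above 10, Il34 in NMSC among them, so that nothing is read from the contrasts that were not called.

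Free RNA carried Cx3cr1 at 70.5, 46.9 and 54.7 CPM. This is above the level in every neuron subtype of the aged libraries, and in the adult library NP was the only subtype above it, at 1.42 times the free RNA level. In SGCs the counts came to 1.57, 0.988 and 1.04 times what the estimated share of free RNA would give, so that the aged SGC levels are at background. In adult NP neurons they were 11.9 times that amount. The MSC levels also lay below the free RNA level in all 3 libraries, where the estimated share of free RNA in MSC was 20.6%, 13.8% and 11.4%. After the free RNA was subtracted the change over all neurons was -2.89.

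The annotated Cx3cr1 gene is unusual. In GENCODE release M21 on GRCm38 it covers 168264 bp of the minus strand of chromosome 9, since 1 of its 3 transcripts runs 147067 bp beyond the others through an intron of 147651 bp. That span overlaps 9 further genes, among them Wdr48, Gorasp1, Ttc21a and Csrnp1. Nuclear RNA holds unspliced transcripts, and if intronic reads were counted, UMIs from that intron and UMIs from the macrophage transcripts cannot be told apart in these counts. None of the 5 overlapping genes that could be tested was called with age in neurons, where 8.83% of all genes were called, so that nothing is read from this count. Wdr48 had 44.1, 58.7 and 59.1 CPM there (0.30, adjusted p = 0.52), Ttc21a 2.32, 1.41 and 1.71 CPM (-0.70, adjusted p = 0.25) and the antisense gene 1700019L13Rik 25, 6 and 2 UMIs (-1.83, adjusted p = 0.10).

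Ccl2, the main chemokine for CCR2-bearing monocytes, was scarce, with 335 UMIs in all kept nuclei. Fibroblasts had the highest mean of the 13 tested classes, at 10.4, 21.6 and 63.0 CPM, and free RNA held 3.79, 3.86 and 4.79 CPM. Their range over libraries overlapped with that of myeloid nuclei, and B cells reached 14.6 CPM in the adult library, on 3 UMIs. Most of the fibroblast Ccl2 lay in 1 of the 4 fibroblast clusters, led by Mmp2, Crispld2, Col15a1 and Lum, which had 44.3, 66.9 and 181 CPM. Endothelial and mural nuclei held no Ccl2 UMI in any library, which allows up to 4.45, 3.38 and 9.55 CPM in endothelium. In neurons the level was 0.86, 1.07 and 0.76 CPM, below free RNA. The myeloid class held 0, 16 and 1 UMIs, and 8 of the 16 came from a single nucleus.

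In fibroblasts Ccl2 rose by a log2 fold change of 1.86 ± 0.37 (adjusted p = 4.7e-05), against a background of 6.25% of genes called. The value rested on few nuclei: 17, 10 and 8 fibroblasts held the 44, 37 and 67 UMIs, and up to 8, 24 and 21 of them came from 1 nucleus. It was 0.96 without aged library 2 and 2.51 without aged library 1, and 4 of the 8 alternatives with a test did not call it: DESeq2 (1.93, adjusted p = 0.36), nuclei thinned to 1000 UMIs (1.14, adjusted p = 0.74), nuclei with more than 2000 genes (2.00, adjusted p = 0.057) and free RNA subtracted (1.83, adjusted p = 0.080). Those that called it include the setting without clusters of low Malat1, which leaves the fibroblast sums as they are. Lists of other cell types were higher in the aged fibroblasts too, among them the 11 myeloid genes (41.5, 85.7 and 82.8 CPM, none at 0) and the 7 monocyte genes (308, 458 and 524 CPM, none at 0), and their part in the Ccl2 value was not tested. Ccl11, the eosinophil chemokine eotaxin, was among the genes whose pattern over classes and libraries was most like that of Ccl2 and also rose in fibroblasts (8.54, 19.2 and 30.1 CPM, 1.41 ± 0.44, adjusted p = 0.027). That likeness was read from sums that include the fibroblast sums, so that the shared rise is not separate evidence for Ccl2. Alternatives for Ccl11 itself are not given here. NMSC held 2, 3 and 10 Ccl2 UMIs (2.00 ± 1.43, adjusted p = 0.50). Gm17268 overlaps Ccl2 on the opposite strand, with 7, 3 and 4 UMIs in fibroblasts.

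Ccr2 was highest in monocyte-like nuclei at 837, 755 and 1297 CPM, with UMIs in 60.0%, 66.7% and 72.0% of them. Dendritic-like nuclei had 602, 140 and 353 CPM on 35, 5 and 17 UMIs, and T cells 206, 143 and 83.6 CPM on 17, 12 and 3. In neuronal, glial, fibroblast, endothelial and mural nuclei it reached 14.7 CPM at most. In the myeloid class the level was 206, 49.9 and 63.6 CPM, on 45, 45 and 40 UMIs. Ccr2 thus fell there by 1.82 on the log2 scale (SE 0.31, adjusted p = 0.0013), while 14.5% of genes were called in this class. The clusters differed: the Cd163 and Mgl2 cluster had 180, 158 and 187 CPM, the Ms4a14 and Ms4a7 cluster 281, 37.4 and 125 CPM, and the Gpnmb-led cluster 9.09 and 7.97 CPM in the aged libraries. Without the Gpnmb-led cluster, a choice made after the data were seen, the estimate was -0.95 and was no longer called (adjusted p = 0.26), and DESeq2 did not call it either (adjusted p = 0.15).

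Receptor transcripts were also read within single myeloid nuclei, as a description of sparse counts. Of 420 nuclei, 62 held UMIs of both Csf1r and Cx3cr1, and Cx3cr1 was seen in 24.7% of nuclei with and 16.0% of nuclei without a Csf1r UMI. Csf1r and Ccr2 were seen together in 20 nuclei; Ccr2 was in 7.97% of nuclei with and 17.2% of those without Csf1r. In 63 monocyte-like nuclei the same pair was seen together in 20. Tgfbr1 was found in 86.5% of the myeloid nuclei with Csf1r and 66.3% of those without. Deeper nuclei show more of every gene, and the order of the Csf1r and Ccr2 shares was the same in each library.

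Tgfb1 had its highest levels in immune and endothelial nuclei, although neurons held 44.0%, 23.6% and 19.8% of its UMIs. Monocytes had 148, 168 and 119 CPM, T cells 96.8, 132 and 139 CPM, B cells 112, 63.2 and 86.0 CPM, myeloid nuclei 59.4, 121 and 121 CPM and endothelium 47.5, 40.6 and 47.8 CPM. Endothelium did not overlap with fibroblasts at 11.1, 12.2 and 14.1 CPM. In neurons it was 2.51, 2.01 and 1.48 CPM, below the 5.38, 8.92 and 8.10 CPM in free RNA. The myeloid age estimate of 1.08 ± 0.36 did not pass (adjusted p = 0.061). It was the nearest of the 10 class estimates for this gene to the threshold.

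Tgfbr1, the type I receptor, was highest among the 13 tested classes in myeloid nuclei, at 968, 1050 and 1223 CPM. Dendritic-like nuclei had 1050, 531 and 540 CPM, above the myeloid level in the adult library. The myeloid values did not overlap with B cells (238, 89.5 and 258 CPM) or fibroblasts (203, 149 and 149 CPM). Within the myeloid class the Ms4a14 and Ms4a7 cluster had 1908, 1475 and 1816 CPM and the Cd163 and Mgl2 cluster 324, 486 and 609 CPM, the same order as for Csf1r and Cx3cr1. PEP neurons, at 36.0, 42.7 and 36.9 CPM, and NF neurons, at 26.4, 26.9 and 29.9 CPM, lay above NP (9.05, 7.72 and 8.51 CPM) and TH neurons (4.72, 7.37 and 4.78 CPM). The part of free RNA in these neuronal levels is not given here. No class was called with age; the estimate was 0.29 ± 0.16 in myeloid nuclei (adjusted p = 0.27) and -0.53 ± 0.22 in fibroblasts (adjusted p = 0.16).

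Tgfbr2, the ligand-binding subunit, was spread more widely. Myeloid nuclei had 256, 410 and 402 CPM, B cells 477, 274 and 258 CPM, MSC 233, 270 and 303 CPM, endothelium 227, 256 and 299 CPM and fibroblasts 163, 166 and 220 CPM. The first 4 of these overlapped in their ranges. SGCs had 105, 104 and 113 CPM, and all neurons 8.78, 12.0 and 8.40 CPM, below free RNA at 33.6, 38.6 and 30.2 CPM. In myeloid nuclei Tgfbr2 rose by 0.72 ± 0.20 on the log2 scale (adjusted p = 0.029). Only 2 of 9 tested alternatives kept this call. The 2 include the setting without clusters of low Malat1, which leaves the myeloid sums as they are. The estimate was 0.11 after thinning (adjusted p = 0.89), 0.40 after free RNA was subtracted (adjusted p = 0.22) and 0.70 with another scaling (adjusted p = 0.059).

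**Figure D4:**
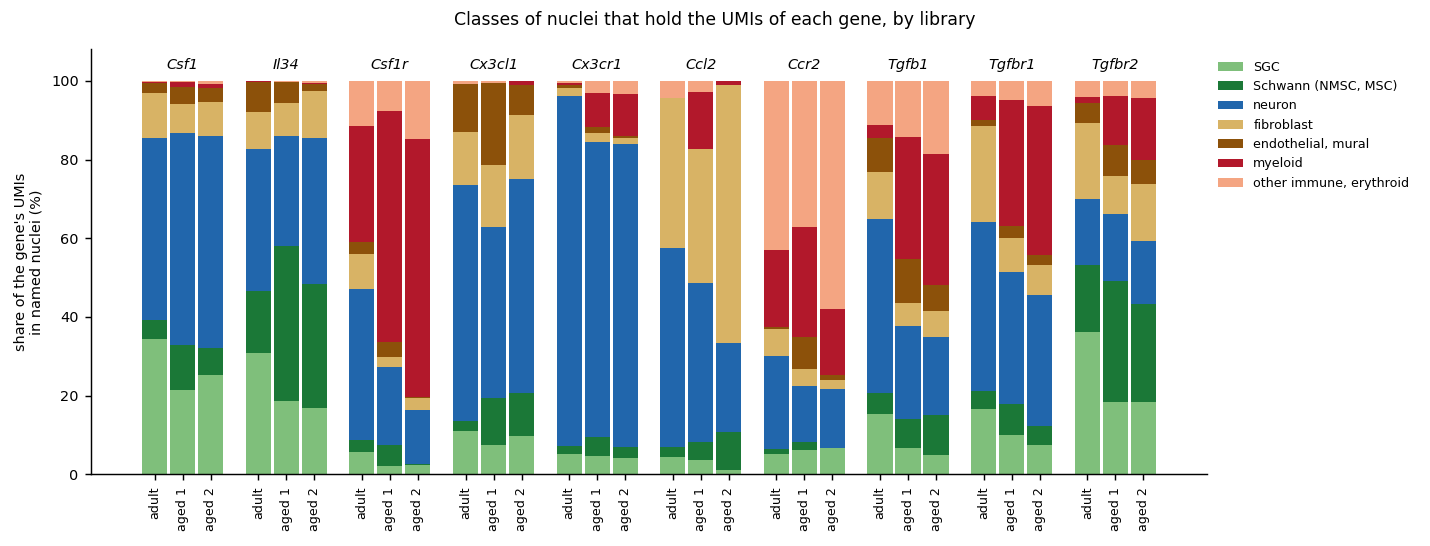
Share (%) of the UMIs of each gene that lay in each group of named classes, with 1 stacked bar per library. The myeloid share of Csf1r is 29.7% for the adult library, against 58.7% and 65.6% for the aged ones, while neurons hold most Cx3cr1 UMIs in every library.

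Over the 13 classes, 97 pairs of a gene and a class could be tested, of which 6 rose and 7 fell with age; with all neurons pooled as a further class, 7 rose and 8 fell. Of all genes tested, the share called higher in the aged libraries was 9.7% in SGCs, 4.29% in NMSC, 1.66% in all neurons, 3.02% in NP, 2.47% in fibroblasts, 7.2% in myeloid nuclei and 3.65% over all nuclei, where 1, 2, 1, 1, 1, 1 and 1 of the 10 genes rose. It was 4.47% in MSC, 0.542% in PEP, 0.127% in SST, 0.455% in TH, 0.147% in COLD, 1.57% in NF, 0.496% in endothelium and 0.652% in B cells, where none of the 10 rose. The share called lower was 8.77% in SGCs, 7.15% in MSC, 7.17% in all neurons, 3.69% in PEP, 7.09% in NP, 1.94% in TH, 6.29% in NF, 7.34% in myeloid nuclei and 8.82% over all nuclei, where 1 of the 10 genes fell in each. It was 5.01% in NMSC, 1.24% in SST, 1.26% in COLD, 3.78% in fibroblasts, 1.53% in endothelium and 0.584% in B cells, where none of the 10 fell. No pair was called in SST, COLD, endothelial or B cell-like nuclei (backgrounds of 1.36%, 1.41%, 2.03% and 1.24% of genes), where 5, 5, 8 and 3 of the 10 genes could be tested. In those 4 classes 1, 0, 2 and 0 of them had an unadjusted p under 0.05. The median log2 fold change of those of the 10 genes that could be tested ran from -1.75 in SST to 1.30 in NMSC, and was -0.76 in COLD, -0.64 in B cells, -0.31 in NP and -0.27 in PEP, while the median of all genes tested lay within 0.04 of 0 in every class.

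**Figure D5:**
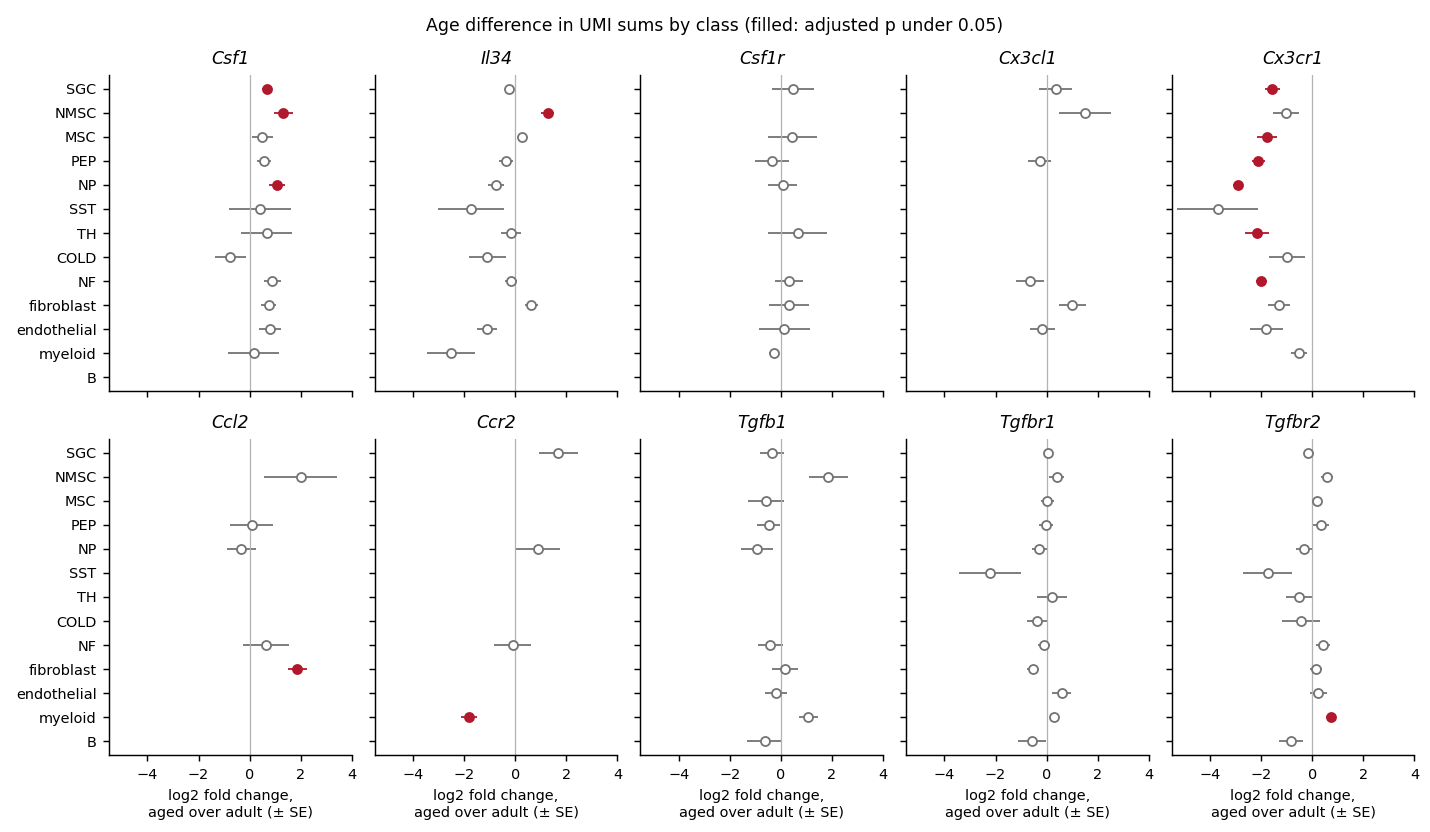
Log2 fold change of aged over adult (± SE, edgeR) of each gene in each class in which it was tested, filled where the adjusted p was under 0.05. Ccl2 in myeloid nuclei, with no UMI in the adult library, is not drawn. The Cx3cr1 estimates lie below 0 in all 12 classes, and Csf1 lies above 0 in 11 of 12.

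The neighbouring genes of these pathways were read from a list of 91, made up of further CSF1R-axis genes, fractalkine sheddases, other chemokines and receptors, TGF-beta genes and 6 genes of the injury state of neurons. In NMSC 13 of 54 tested rose and 4 fell, beside 4.29% and 5.01% of all genes, with a median of 0.64 on the log2 scale. There Kitl, the ligand of KIT, rose from 16.7 CPM to 81.5 and 125 CPM (2.41 ± 0.36, adjusted p = 2.5e-09), Tgfbi, a TGF-beta-induced matrix protein, from 7.25 CPM to 42.5 and 43.3 CPM (2.37 ± 0.48, adjusted p = 2.7e-05), and Skil, a SMAD repressor, from 3.63 CPM to 22.0 and 27.4 CPM (2.53 ± 0.64, adjusted p = 0.0018). The counts for NMSC were 6 higher and 5 lower with the class set directly from marker genes, 5 and 2 with nuclei thinned to 1000 UMIs, and 4 and 1 with DESeq2. Aged NMSC nuclei also held more of the myeloid, cycling and granulocyte lists, as given above, and of the satellite glial list (3130, 4025 and 3677 CPM), and the part of these lists in the changes was not tested. The chemokine Cxcl14 was at 0, 52 and 22 UMIs in NMSC and at 0, 46 and 9 UMIs in MSC, and both differences were called. MSC had 5 of 57 higher and 3 lower, beside 4.47% and 7.15% of all genes, with Ptprz1, a receptor of IL-34 and of pleiotrophin, falling by 1.66 (SE 0.20, adjusted p = 1.1e-14), Inpp5d, the SHIP1 phosphatase, by 1.26 (SE 0.45, adjusted p = 0.044), and Jun rising by 1.15 ± 0.26 (adjusted p = 0.00029). The counts for MSC were 1 and 0 with DESeq2, 2 and 1 after thinning, 2 and 6 above 2000 genes per nucleus, and 4 and 1 with free RNA subtracted. The part of other cell types in the MSC changes was not tested.

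In SGCs 9 of 62 rose and 5 fell, beside 9.7% and 8.77% of all genes, so that the count that fell is near the background. Atf3, a transcription factor of injured neurons, rose from 1.15 CPM to 9.11 and 6.17 CPM (2.57 ± 0.56, adjusted p = 8.5e-05), Irf8, a factor of the myeloid lineage, from 0.90 CPM to 4.26 and 4.24 CPM (2.02 ± 0.72, adjusted p = 0.030), and Sox11 by 1.10 ± 0.35 (adjusted p = 0.015). Sprr1a, another injury gene, was at 0, 27 and 5 UMIs. The neuronal list was also higher in aged SGC nuclei, as given above, and its part in these changes was not tested. These calls were not firm either: the counts were 1 and 1 with DESeq2, 0 and 0 after thinning, 0 and 0 with no filter on low counts, 0 and 2 with the class set directly from marker genes, and 1 and 2 above 2000 genes per nucleus. In all neurons 6 of 79 rose and 4 fell, beside 1.66% and 7.17% of all genes: Sprr1a was at 1, 131 and 84 UMIs, Atf3 rose from 3.08 CPM to 18.3 and 9.06 CPM (2.03 ± 0.28, adjusted p = 1.2e-10), Cxcl14 from 4 to 28 and 10 UMIs (2.96 ± 0.78, adjusted p = 0.0037), and Cxcr2 fell by 1.96 (SE 0.50, adjusted p = 0.0024). The counts for all neurons were 2 and 0 with DESeq2, after thinning and without the clusters of low Malat1, and 1 and 1 with free RNA subtracted. Cxcr2 gave -1.90 without those clusters (adjusted p = 0.055) and -4.37 with free RNA subtracted (adjusted p = 0.075), and Atf3 gave 2.00 in the latter (adjusted p = 0.11). Cxcl14 gave 3.59 without the clusters of low Malat1 (adjusted p = 0.084) and 2.98 with DESeq2 (adjusted p = 0.38). It was not among the genes tested after thinning, with the marker gate or with free RNA subtracted.

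By neuron subtype, NF had 4 of 65 higher and 2 lower, NP 2 of 67 and 2, PEP 3 of 65 and 0, SST 0 of 34 and 2, TH 0 of 48 and 2, and COLD 0 of 41 in either direction, where 3 had an unadjusted p under 0.05 and DESeq2 called 0, beside the shares of all genes given above. DESeq2 called 3 and 0 in NF, 1 and 0 in NP and 0 and 0 in PEP, SST and TH, and thinned nuclei 1 and 0 in NF and 0 and 0 in the other subtypes. Atf3 rose in NF (2.74 ± 0.29, adjusted p = 8.1e-19), NP (2.27 ± 0.38, adjusted p = 1.6e-07) and PEP (1.59 ± 0.43, adjusted p = 0.0087), and Sprr1a was called in the same subtypes on 0, 55 and 17, 1, 61 and 27, and 0, 11 and 5 UMIs. Without the clusters of low Malat1 described above, which took a larger part of the aged nuclei in these subtypes, Atf3 gave 2.74 in NF (adjusted p = 0.00012), 1.91 in NP (adjusted p = 0.013) and 1.44 in PEP (adjusted p = 0.073). Sprr1a then remained called in NP (adjusted p = 0.00020) and not in NF (adjusted p = 0.14), and was not among the genes tested in PEP. Cxcl12, the ligand of CXCR4, rose in NF (1.68 ± 0.50, adjusted p = 0.015) and in PEP (2.18 ± 0.53, adjusted p = 0.0018), and Csf3r fell in NF by 1.92 (SE 0.51, adjusted p = 0.0044). Without the clusters of low Malat1, NF had 1 higher, Atf3, and 0 lower, so that Cxcl12 and Csf3r were no longer called there. NP then had 4 higher and 5 lower, and PEP 2 and 1. The scavenger receptor Ackr3 (-2.42 ± 0.81, adjusted p = 0.033) and the proteoglycan Dcn (-0.64 ± 0.21, adjusted p = 0.026) fell in NP, Kit (-1.98 ± 0.57, adjusted p = 0.041) and Ptprz1 (-1.87 ± 0.46, adjusted p = 0.0056) in SST, and Itgb6, part of an integrin that activates TGF-beta, (-2.33 ± 0.50, adjusted p = 0.0010) and Ptprz1 (-1.11 ± 0.32, adjusted p = 0.040) in TH. With free RNA subtracted, NF had 3 higher and 1 lower and NP 2 and 0. PEP and SST then had 0 and 0, and TH 0 and 1. Ackr3 and Dcn, the latter a gene of the fibroblast list, were thus no longer called in NP. Nor were the genes named in PEP and SST.

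Fibroblasts had 7 of 65 higher and 3 lower, beside 2.47% and 3.78% of all genes. Cxcl12 rose there from 10.2 CPM to 49.0 and 45.1 CPM (2.12 ± 0.36, adjusted p = 5.8e-07), Ltbp2, a matrix protein of the latent TGF-beta family, by 1.52 ± 0.49 (adjusted p = 0.035), and Ptprz1 fell by 1.45 (SE 0.27, adjusted p = 8.8e-06). The counts for fibroblasts were 1 and 0 with DESeq2, and 2 and 1 both after thinning and with free RNA subtracted. In endothelium 1 of 51 rose, Csf2rb, the common beta chain of the GM-CSF receptor (29.7, 90.2 and 95.5 CPM, 1.58 ± 0.44, adjusted p = 0.020), and 1 fell, Ptprz1 (-1.23 ± 0.33, adjusted p = 0.013). Free RNA took 31.9%, 22.9% and 13.8% of endothelial UMIs, and with it subtracted the value for Ptprz1 was -1.51 (adjusted p = 0.011). DESeq2 and thinned nuclei gave no call in endothelium. No member of the list was called by edgeR or DESeq2 in B cells, where 29 were tested and 3 had an unadjusted p under 0.05 with edgeR. In myeloid nuclei 5 of 60 rose and 7 fell, beside 7.2% and 7.34% of all genes, so that the count that rose is near the background. Atf3 was at 3, 66 and 45 UMIs, a difference that was called (adjusted p = 0.013). Ltbp1 (-3.14 ± 0.45, adjusted p = 0.00037), Ptprz1 (-2.73 ± 0.48, adjusted p = 0.0018) and Itgb8 (-2.54 ± 0.45, adjusted p = 0.0018) fell in this class. Free RNA took 28.5% of the adult UMIs, and with it subtracted 4 of 57 rose and 5 fell, with Ltbp1 at -3.58 (adjusted p = 0.00029), Ptprz1 at -3.41 (adjusted p = 0.0020) and Itgb8 at -3.37 (adjusted p = 0.0010). Without the Gpnmb-led cluster, which held few adult nuclei, no gene of 46 was called in either direction (edgeR, with 8 at an unadjusted p under 0.05), and Atf3 was at 1.10 (adjusted p = 0.66), Ltbp1 at -2.44 (adjusted p = 0.090), Ptprz1 at -1.83 (adjusted p = 0.097) and Itgb8 at -1.69 (adjusted p = 0.10). DESeq2 called 0 higher and 1 lower, and thinned nuclei gave 0 and 3. Over all kept nuclei 14 of 86 rose and 5 fell, beside 3.65% and 8.82% of all genes, among them the chemokines Cxcl14 (13, 181 and 68 UMIs, 3.99 ± 0.47, adjusted p = 4.2e-15), Ccl3 (3, 15 and 22 UMIs, adjusted p = 0.0010) and Ccl8 (14, 55 and 20 UMIs, 2.18 ± 0.54, adjusted p = 0.0010), each of which draws leukocytes, and Sprr1a (10, 189 and 101 UMIs, 4.62 ± 0.48, adjusted p = 2.2e-19).

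The positions of the 10 genes are from GENCODE release M21 on GRCm38, the build that the submitters' processing notes name as mm10. Csf1 lies at chr3:107741048-107760469 on the minus strand, Il34 at chr8:110741829-110805924 on the minus strand, Cx3cl1 at chr8:94772009-94782427 on the plus strand and Ccl2 at chr11:82035571-82037453 on the plus strand. Csf1r is on chromosome 18. The receptor genes Tgfbr2, Cx3cr1 and Ccr2 share chromosome 9, with Tgfbr2 at chr9:116084293-116175360 (minus), Cx3cr1 at chr9:119901616-120069879 (minus) and Ccr2 at chr9:124101950-124113557 (plus). Tgfb1 lies at chr7:25687002-25705077 (plus) and Tgfbr1 at chr4:47353222-47414931 (plus). All 10 are protein-coding; Csf1, Cx3cl1, Ccr2, Tgfb1, Tgfbr1 and Tgfbr2 overlap no other annotated gene.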

How the data were processed

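The authors deposited raw UMI counts per gene and barcode, with no normalization; per the study's methods PIPseeker aligned and counted the reads, and the processing notes name the build mm10. The annotation behind the counts is not given in the sources used here. Nuclei with more than 1000 genes were kept, integrated by age (Seurat 5.3.0, SCTransform, 30 components, resolution 0.8) without the 10 genes, and named from marker lists; the naming rule was set after the clusters were seen. Mixed, mitochondrial and unnamed clusters (394, 344 and 154 nuclei) were left out, and no doublet caller was run. UMI sums per library and class were tested with edgeR 4.0.16 (quasi-likelihood, TMM, filterByExpr, Benjamini-Hochberg over all genes tested, threshold 0.05); the lone adult library is assumed to vary like the aged pair. The 10 genes and all lists were chosen with earlier results of these data known. Named from the 91-gene list were at most 4 called genes per class with the largest change. Free RNA was read from barcodes with 10 to 100 UMIs. Intervals and floors (3 UMIs) cover counting error only. DESeq2 1.42.0, RLE scaling, no filter, omission of each aged library, more than 2000 genes, thinning to 1000 UMIs, integration by library, a marker gate and subtraction of free RNA were alternatives; leaving out clusters with low Malat1 and the Gpnmb-led cluster was added after the data were seen. Some genes with a similar pattern are not reported here.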

Additional observations from a re-analysis of the deposited data

Results flagged for a closer look

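Cx3cr1 drew attention since its age effect differed between classes: the effect in myeloid nuclei was 1.76 higher on the log2 scale than the mean over the other classes (edgeR, adjusted p = 0.0086). Counts of the genes also lay in kept nuclei outside every named class, in the mixed, mitochondrial and unnamed clusters that entered the sums over all kept nuclei but no comparison by class. They came to 60 UMIs of Csf1, 151 of Il34, 69 of Csf1r, 17 of Cx3cl1, 182 of Cx3cr1, 62 of Ccr2, 53 of Tgfb1, 164 of Tgfbr1 and 247 of Tgfbr2, each above the 3 UMIs that a count of 0 allows. Ccr2 had the largest share of its UMIs there, 8.93%, and Tgfbr1 the smallest, 1.89%.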

How the results depend on the processing

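No paired analysis applies, since the libraries of the 2 groups come from mice of different ages and replicate numbers link no animals. Of 18 called results, 17 kept their sign in every alternative and 6 their call in every alternative that gave a test. These 6 concern only Csf1r and Cx3cr1 and are not separate results. They are Csf1r over all nuclei, Cx3cr1 in the nested sums of all nuclei, all neurons, NP and PEP, and the Cx3cr1 contrast. That contrast had 1 alternative with a test. Pairs of a gene and a class that rose numbered 7, and 1 with DESeq2, 4 above 2000 genes, 0 after thinning, 2 with the marker gate and 2 with free RNA subtracted. Pairs that fell numbered 8, and 4 with DESeq2. Over all nuclei 1 gene rose, and 3 above 2000 genes. In the 91-gene list 55 pairs rose, against 13 with DESeq2, 28 above 2000 genes, 12 after thinning and 22 with the marker gate, and 35 fell, against 3, 7 (thinning), 21 (marker gate) and 18 (free RNA subtracted). Reversed were Il34 in NMSC (-0.51, marker gate), Tgfbr1 in myeloid nuclei (-0.25 thinned, -0.12 integrated by library, -0.0685 with free RNA subtracted), and Csf1r (0.0514) and Cx3cr1 (0.18) in myeloid nuclei without the Gpnmb-led cluster. The cause was not tested. Myeloid nuclei with more than 2000 genes were too few to test. Among the 13 tested classes, the class with the highest mean level was the same for 8 to 10 of the 10 genes when 1 library was left out. Mural and monocyte-like nuclei, where Il34, Ccr2, Cx3cr1 and Tgfb1 had their highest mean levels, were not in this check. For Csf1r the monocyte-like values overlapped with those of the myeloid class. Cx3cl1 and Ccl2 had the fewest UMIs of the 10 genes, 525 and 335 in all kept nuclei, and the small immune classes held too few nuclei for tests.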

Other observations

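Over the 39 sums of 13 classes and 3 libraries, which share libraries and depth, genes among those most like each of the 10 (Pearson r of log2(CPM + 1), given as a description) were named by rank among 19068 genes. Csf1r was most like the macrophage genes Mrc1 (r = 0.931), Clec4a2 and Lilra5, and Ccr2 most like the hematopoietic factor Lyl1 (0.907), 9930111J21Rik1 and Ms4a6c. Tgfb1 was close to Trim30a (0.941) and Gm12185, Tgfbr1 to Tcirg1 (0.934), Vrk2 and Cflar, and Tgfbr2 to Dleu2 (0.970), Prkd3 and Mdfic. For Csf1 they were Bmp1 (0.860), Sulf1 and Ctnna1, for Il34 Kank4 (0.892) and Gulp1, and for Cx3cl1 Tspan9 (0.828), Hlf and Cxcl12. Cx3cr1 had the vomeronasal receptor gene Vmn2r21 (0.792), Tmem150b and Cfap43, none of them a macrophage marker of the lists used here, and Ccl2 had Sox9 (0.780), Ccl11 and Gm20756.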
